A study of Drosophila melanogaster with 16 samples.

Results

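The cytosolic ribosomal protein genes of Drosophila melanogaster were followed in heads of adult males after a single exposure to ethanol vapor. Members were all genes whose probe set carried a single gene symbol beginning RpL or RpS and followed by a digit, which leaves out the mitochondrial mRp genes. A member also had to reach log2 4 in at least 3 of the 16 arrays, and a gene with several probe sets was represented by the one with the highest mean. Of the 88 RefSeq symbols that begin this way, 37 were found as the single symbol of a probe set in the array annotation, on 43 probe sets. Whether the array measures the others on probe sets with several symbols or none was not examined. The filter kept 29 of the 37 as members, 18 named for the large subunit and 11 for the small subunit, among 8110 features kept in all. RpS6, RpL11, RpL5, RpS3, RpS13 and RpL10 were not analysed here.

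Ribosomal proteins coat the ribosomal RNAs of a small and a large subunit, which decode the messenger RNA and join amino acids. The cell needs the proteins in equal numbers, their messengers are among the most abundant of almost every tissue, and their synthesis follows nutrient signals through the TOR kinase and the transcription factor Myc. In flies, loss of 1 copy of many of these genes slows development and thins the bristles, the Minute phenotype.

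7 arrays came from flies that breathed ethanol vapor, a 60% dilution of the saturated vapor in humid air at 3.7 L/min, for 30 min. Another 7 came from flies given the humid air stream alone for the same 30 min. Each exposure has 1 array at 0, 30, 60, 90 or 120 min of recovery and later at 180 or 210 min, and 2 further arrays, A and B, came from flies with no exposure. All flies were males of the Berlin wild-type background, 2 to 4 days old, and each exposed array is a single pool of 3 groups of 200 flies. A time therefore has no replicate pool, and p-values for ethanol against air rest on the spread of the 7 matched differences. The limma fit draws each gene's spread toward one shared by all kept features. For genes that vary little, the standard errors can thus exceed those of their own 7 differences.

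Values are log2 expression, quantile normalized between arrays by the authors' method, GCRMA. The array medians over all probe sets, which lie near background, were 2.88 to 3.03. Of the head and neuron markers, 5 of 9 passed the filter and averaged 11.6 to 12.1 per array. In 4 arrays the mean of the kept body tissue markers stood far above that in the other arrays. These were air at 0, 60 and 120 min and ethanol at 120 min. The markers were of male accessory gland (9 of 18 kept), gut (6 of 17) and testis (5 of 24). A marker low elsewhere could pass the filter only through these 4 arrays, and markers below the filter were left out of the means. Of the 5 kept testis markers, 4 were positive in air minus unexposed and bol was negative, at -0.31. The mean of the kept accessory gland markers ranged from 2.39 to 4.64 in ethanol arrays, 2.41 to 8.28 in air arrays and 2.40 to 2.44 in unexposed arrays. That of the gut markers ranged from 2.69 to 7.65 in ethanol arrays, 2.69 to 8.62 in air arrays and 2.65 to 2.66 in unexposed arrays. The median over the ribosomal protein genes is given with and without those arrays for each of the 6 comparisons. Over all kept features, the median difference from the unexposed mean was highest in ethanol at 0 min (0.16) and air at 180 min (0.22).

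Every one of the 29 ribosomal protein genes was far above background in every array, and 23 of them averaged log2 13 or more. Their mean levels ran from 9.73 (RpL7-like) to 14.93 (RpL41), with a median of 13.87, and 22 of the 29 lay among the 171 features with the highest means. The highest value of any feature on an array was 15.05 to 15.35, so the brightest members sat close to the top of the range that the arrays reached. RpL41 (probe set 1639614_s_at), a very short basic protein of the large subunit, had 14.86 to 15.03 in ethanol arrays, 14.85 to 15.04 in air arrays and 14.84 and 14.88 in unexposed arrays. RpL15 (1627308_s_at) followed at 14.73 to 14.88 in ethanol arrays, 14.75 to 14.84 in air arrays and 14.80 and 14.86 in unexposed arrays. In both genes the 3 groups overlapped. Probe sets differ in their binding, so these values do not order the genes by messenger amount.

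RpS29, RpS28b and RpL39 completed the 5 highest, with means of 14.37, 14.36 and 14.29. RpL37-1, for which a second gene copy is also on the array, averaged 13.81, RpL10Ab 13.83 and RpL32, whose messenger is widely used as a reference in fly expression studies, 13.87. RpL40 and RpS27A, which are made as fusions with ubiquitin, averaged 13.89 and 14.11. RpS30, made as a fusion with a ubiquitin-like protein, averaged 13.66. The low end held RpL27 (12.73), RpS21 (12.47), RpL24-like (11.84), RpL34a (11.04) and RpL7-like (9.73). RpL24-like and RpL7-like stand apart by function as well as by name, since their yeast counterparts Rlp24 and Rlp7 are assembly factors of the large subunit and not parts of the finished ribosome.

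**Figure D1:**
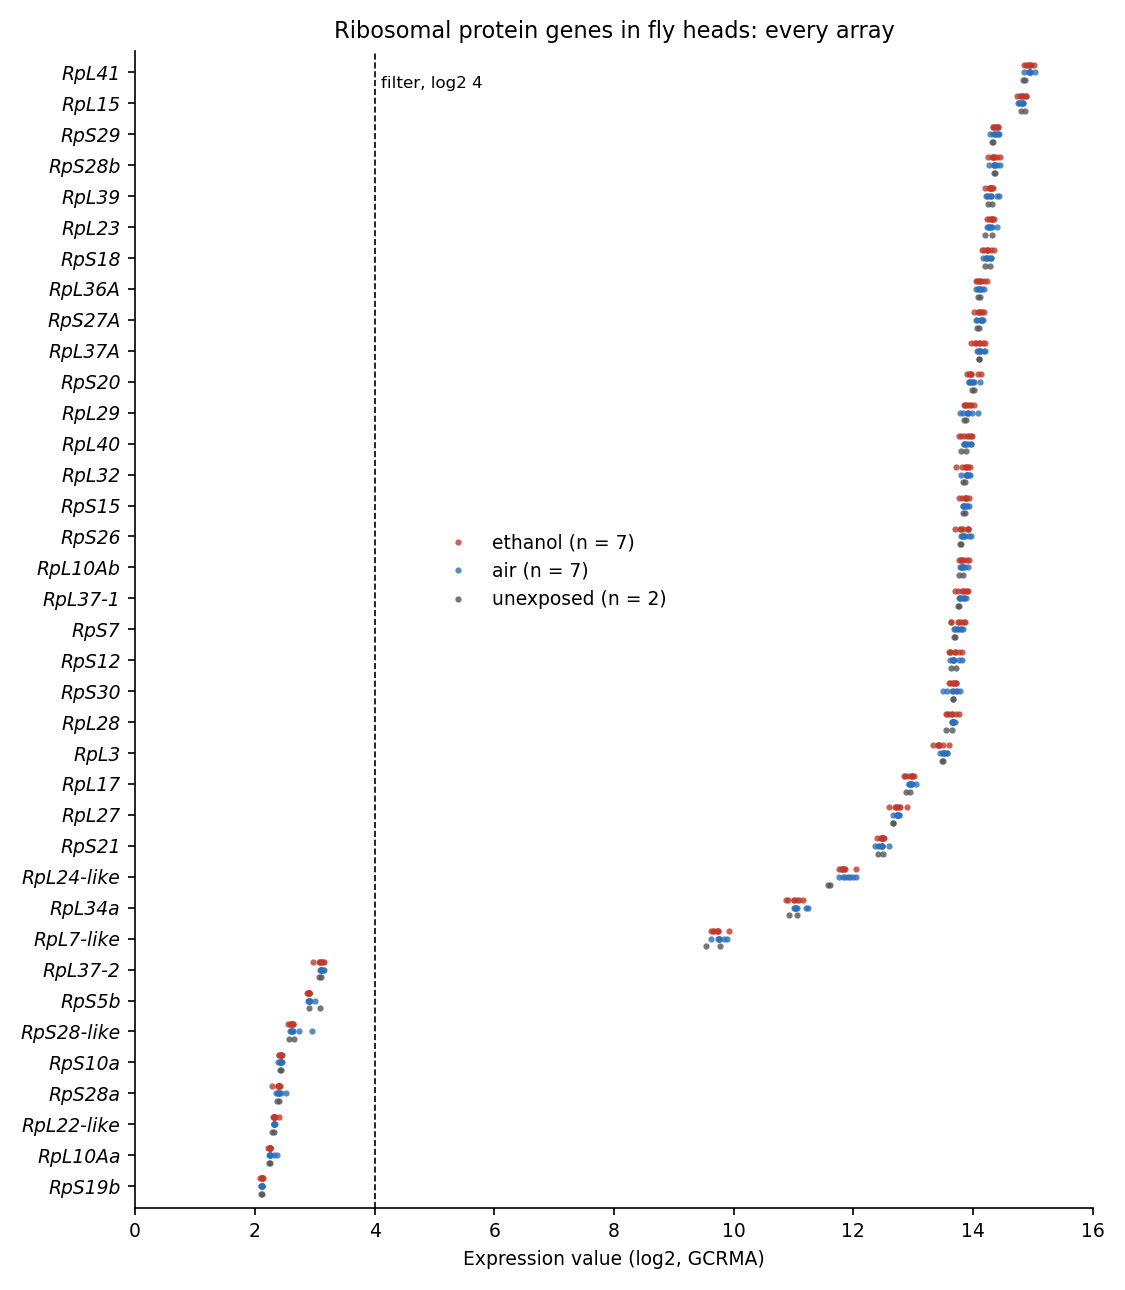
Log2 value of each of the 37 ribosomal protein genes named in the array annotation (rows, by mean) in every array. Each point is 1 array of ethanol (n = 7), air (n = 7) or unexposed flies (n = 2). The dashed line is the log2 4 filter: 29 genes lie at 9.73 or above on average, 8 lie at 3.10 or below, and within nearly every row the 3 groups overlap.

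The other 8 genes did not reach the filter in any array. They were RpL10Aa, RpL22-like, RpL37-2, RpS10a, RpS19b, RpS28-like, RpS28a and RpS5b, most of them copies of a gene whose partner serves most tissues, and several of them are known from the fly ovary or testis. Their means were 2.12 (RpS19b) to 3.10 (RpL37-2), and their single values spanned 2.09 to 3.16, at about the level of the array medians. Nothing lay between RpL37-2 outside the filter at 3.10 and RpL7-like inside it at 9.73. Partner genes on the same array gave a full contrast: RpL10Ab averaged 13.83 beside RpL10Aa at 2.26, RpL37-1 13.81 beside RpL37-2 at 3.10, and RpS28b 14.36 beside RpS28a at 2.40 and RpS28-like at 2.64. These pairs set 1 probe set against another, but each low value lies in the background range. In the 4 arrays with testis and accessory gland markers these copies stayed in that range. RpL10Aa was highest in air at 0 min (2.36) and 120 min (2.32), against 2.25 and 2.23 in unexposed arrays, and the widest gap between a gene's highest and lowest array was 0.40, in RpS28-like, whose highest value was that of air at 210 min (2.96).

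The members hardly varied between arrays. The SD over the 16 arrays had a median of 0.060 log2 and ran from 0.043 (RpS29) to 0.13 (RpL24-like). The 492 other features with a mean of log2 12 or more had a median SD of 0.10, and all 8110 kept features one of 0.17. The gap from the lowest to the highest array was 0.15 to 0.47 in the members, with a median of 0.23, beside 0.36 in the other features at log2 12 or more. High signals varied less in general on these arrays, and whether values near the upper end were compressed was not tested.

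**Figure D2:**
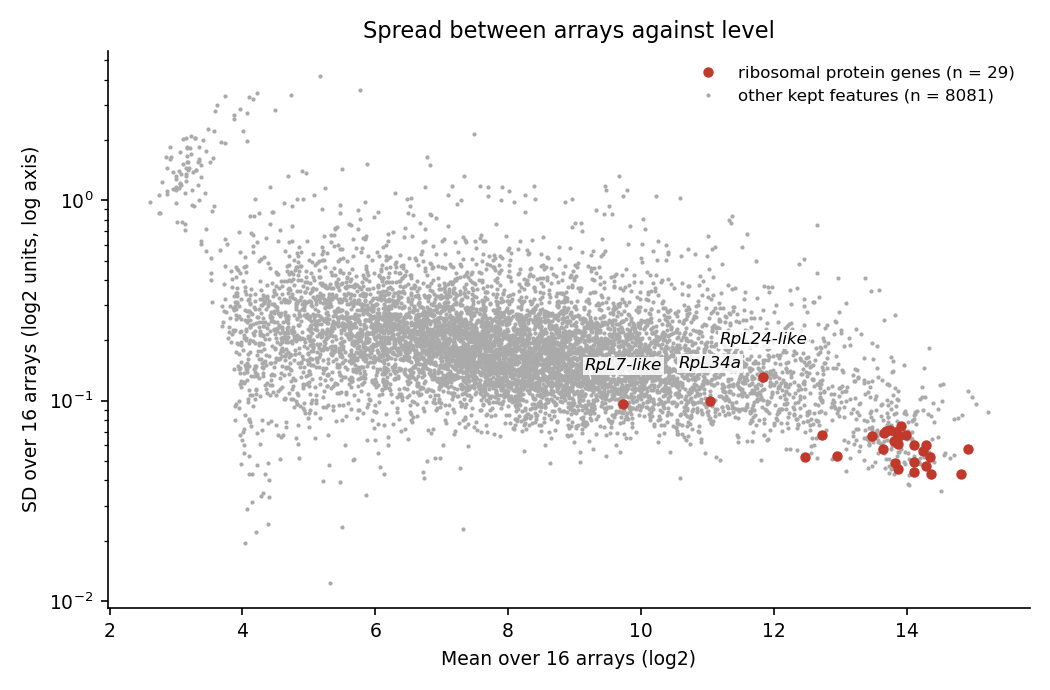
SD over the 16 arrays (log axis, log2 units) against mean level (log2) for the 29 ribosomal protein genes (red) and the 8081 other kept features (grey). Most members lie in the low right corner with SDs of 0.043 to 0.075, and RpL24-like, RpL34a and RpL7-like lie higher and further left.

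What variation there was ran largely in parallel. Over the 16 arrays the Pearson correlation between 2 members had a median of 0.50 across the 406 pairs, and 95.8% of the pairs were positive. Between the 492 other features at log2 12 or more the median was 0.20, and 69.9% of pairs were positive. The pairs share the same arrays and their normalization, so an array that reads slightly high raises all such correlations, and the values are a description without a test. The lowest correlation of a member pair was -0.30 and the highest 0.93. Without RpL24-like and RpL7-like the median stayed at 0.50.

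The main comparison asked whether ethanol shifted the ribosomal protein genes against the air arrays of the same times. No member passed: 0 of 29 met the threshold of limma's test, an adjusted p of 0.05, where 0.691% of all features (56 of 8110) did. An unadjusted p below 0.05 was found in 0 of 29, where 12.1% of all features had one. The median difference, ethanol minus air, was -0.0075 log2, beside -0.011 over all features. 11 members were above 0 and 18 below, where 45.1% of all features were above 0. Under median scaling of the arrays the members' median was 0.0014, with 17 of 29 above 0. On the deposited scale the difference at single genes ran from -0.072 (RpL34a) to 0.017 (RpL15), with standard errors of 0.066 and 0.044.

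The intervals give the size of shift in array values that the data of each gene's brightest probe set allow. They do not cover second probe sets: the dimmer set of RpL3 (1625889_at) gave 0.22 (SE 0.11), above the upper bound that follows. Across the 29 genes, the 95% confidence intervals of the difference reached no lower than -0.22 log2 (RpL34a) and no higher than 0.13 (RpS30). In signal this is a change of -14.2% to 9.17%. These bounds assume that the 7 matched differences of a gene are alike apart from noise. Since the heads were extracted whole, fewer cells of a type and less messenger per cell cannot be told apart, nor can a change in the total messenger of a head be seen after quantile normalization.

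RpL3 and RpL34a, both of the large subunit, came closest. RpL3 (1630270_s_at), which lies near the site of peptide bond formation, had 13.60, 13.43, 13.42, 13.44, 13.33, 13.42 and 13.50 from 0 to 210 min in ethanol arrays. It had 13.51, 13.49, 13.51, 13.45, 13.52, 13.56 and 13.57 at the same times in air arrays, and 13.50 and 13.48 in unexposed arrays. Ethanol was thus above air at 0 min and below it at the other 6 times, by -0.066 log2 on average (SE 0.050, limma adjusted p = 0.661). RpL34a differed by -0.072 (SE 0.066, adjusted p = 0.723), and RpL24-like by -0.052 (SE 0.057, adjusted p = 0.779). The smallest p-values in the other direction belonged to RpL15 at 0.017 (SE 0.044), RpL36A at 0.011 (SE 0.046) and RpS21 at 0.011 (SE 0.046), with adjusted p-values of 0.924 to 0.957.

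RpL32, the common reference gene, had 13.71 to 13.94 in ethanol arrays (median 13.89), 13.80 to 13.95 in air arrays (median 13.89) and 13.86 and 13.84 in unexposed arrays. The groups overlapped throughout, and the difference was -0.028 (SE 0.052, 95% confidence interval -0.15 to 0.091, limma adjusted p = 0.884). The ubiquitin fusions RpL40 and RpS27A differed by -0.013 (SE 0.049) and -0.012 (SE 0.048), and RpS30 by 0.010 (SE 0.051). None of these 3 passed the test. The median over the 18 large subunit genes was -0.018 and over the 11 small subunit genes -0.0013, and the difference between the subunits was not tested.

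Counts over the 7 times held no member that kept 1 direction throughout. Ethanol was above air at all 7 times in 0 of 29 members, where 2.28% of all features were, and below air at all 7 times in 0 of 29, where 1.55% were. The extremes were RpL3 and RpL7-like, above air at 1 of 7 times, and RpL15 and RpS21, above at 5 of 7. At 3 of 7 times ethanol was above air in 14 members.

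At a single time, the members leaned together one way or the other. Their median difference, ethanol minus air, was 0.085 at 0 min, -0.021 at 30 min, 0.029 at 60 min, 0.066 at 90 min, -0.099 at 120 min, -0.069 at 180 min and -0.060 at 210 min. Ethanol was above air in 24, 9, 21, 23, 1, 5 and 3 of the 29 genes at these times. The early times except 30 min thus lay above 0 and the 3 late times below it. Over all kept features, ethanol was above air in 78.01, 47.88, 51.94, 47.90, 42.05, 23.46 and 49.90% at these times. The shares among the 492 other features at log2 12 or more were 79.27, 44.11, 46.34, 59.15, 18.29, 35.16 and 35.77%. The 492 other features at log2 12 or more had medians of 0.087, -0.015, -0.0081, 0.026, -0.090, -0.064 and -0.040 at the same times. They followed the members in sign at every time but 60 min. These 492 include the ribosomal proteins RpLP0, RpLP1 and RpLP2, and features with several symbols or none, which were not named. Whether the lean is particular to ribosomal protein genes was therefore not tested. Each time compares 1 pool with 1 pool and carries no test.

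Over all kept features the medians were 0.15, -0.0063, 0.0058, -0.0086, -0.029, -0.17 and -0.00045 from 0 to 210 min. The members were therefore lower than the whole array at 0 min and higher at 180 min, where the ethanol array at 0 min and the air array at 180 min read high over all features. They were also higher than the whole array at 90 min, at 0.066 against -0.0086. The members were lower at 120 min (-0.099 against -0.029) and at 210 min (-0.060 against -0.00045). At 90, 120 and 210 min neither array read as high over all features. The largest single difference was that of RpL34a at 180 min, -0.36 log2. At 120 min all members but RpL15 (0.013) were lower in ethanol, and at that time both arrays carried body tissue markers, with accessory gland markers 2.22 log2 above the unexposed mean in ethanol and 4.57 in air.

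**Figure D3:**
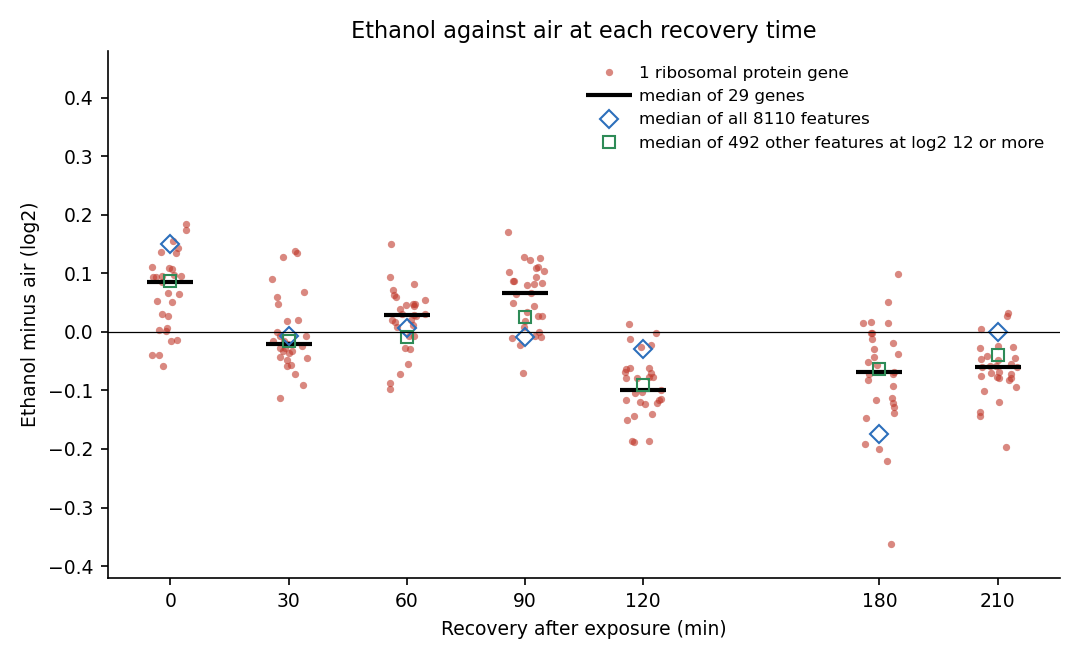
Ethanol minus air (log2) at each recovery time (min, axis to scale): red points are the 29 ribosomal protein genes, black bars their median, blue diamonds the median of all 8110 kept features and green squares the median of 492 other features at log2 12 or more. The members' median lies at 0.085 at 0 min and at -0.099, -0.069 and -0.060 at the 3 late times, close to the green squares at 0, 30, 120 and 180 min.

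The next question was whether the gap between ethanol and air drifted during recovery. Fitted as a slope per hour, it passed the test in 0 of 29 members, where 0.678% of all features (55) passed. The median slope was -0.041 log2 per hour, with 28 of 29 negative, beside -0.051 over all features, of which 26.4% were positive. Under median scaling of the arrays the members' median slope turned to 0.016 with 24 of 29 positive, so the sign depended on how arrays were scaled. Only RpL34a, 1 of 29, had an unadjusted p below 0.05, where 15.5% of all features did. Its slope was -0.12 per hour (SE 0.038, limma adjusted p = 0.217). RpL24-like (-0.072, SE 0.042) and RpS20 (-0.066, SE 0.040) followed with adjusted p-values of 0.417 and 0.427. RpL41 alone had a positive slope, 0.019 (SE 0.041).

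RpL34a (1641721_a_at), a protein of the large subunit, had 11.15, 11.06, 11.09, 11.00, 10.90, 10.87 and 11.01 from 0 to 210 min in ethanol arrays. The air arrays had 11.04, 11.01, 11.05, 11.02, 11.02, 11.24 and 11.21, and the unexposed arrays 11.06 and 10.92. Ethanol was above air at 0, 30 and 60 min and below it at the other 4 times, and the gap was widest at 180 min, in the air array that read high over all features.

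Within each exposure taken alone, no member passed for a slope over recovery, and none had an unadjusted p below 0.05. Of all kept features, 19.98% had such a p in limma's test of the slope in ethanol arrays. Among the ethanol arrays 0 of 29 slopes passed the test, where 3.23% of all features (262) passed, and the median slope was -0.021 log2 per hour beside -0.010 over all features. Without the ethanol array at 0 min the members' median slope was -0.00037. RpL7-like (-0.058, SE 0.031), RpL34a (-0.056, SE 0.032) and RpL28 (-0.049, SE 0.029) had the smallest p-values of the negative slopes, with limma adjusted p-values of 0.364 to 0.409. RpL41 (0.026), RpS30 (0.023) and RpL29 (0.016) had those of the positive ones, with adjusted p-values of 0.698 to 0.831.

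Among the air arrays 0 of 29 passed limma's test, where 0% of all features passed and 10.1% had an unadjusted p below 0.05. Slopes were positive in 28 of 29 members, with a median of 0.020 per hour beside 0.040 over all features, of which 80.5% were positive. Median scaling turned the members' median to -0.021, with 3 of 29 positive. RpL34a (0.061, SE 0.029), RpL24-like (0.050, SE 0.032) and RpS30 (0.048, SE 0.033) had the smallest p-values, with limma adjusted p-values of 0.509 to 0.591, and RpS7 alone was negative (-0.0050, SE 0.028).

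Exposed flies were then set against unexposed flies. The ethanol and air comparisons share the same 2 unexposed arrays and are not independent of each other. After ethanol 0 of 29 members passed the test, where 0.715% of all features (58) passed. The median difference was 0.023 log2 with 23 of 29 positive, beside 0.036 over all features, of which 59.6% were positive. After air 0 of 29 passed limma's test, where 0% of all features passed and 6.41% had an unadjusted p below 0.05. The median was 0.035 with 25 of 29 positive, beside 0.047 over all features, of which 66.0% were positive. Both medians turned negative under median scaling (-0.024 and -0.021). The unexposed arrays themselves differed by a median of 0.027 in the members, A minus B, with 22 of 29 higher in A, beside 0.13 over all features.

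RpL24-like (1633283_at) was the member whose exposed arrays lay furthest from the unexposed ones, and the only member with an unadjusted p below 0.05 after ethanol or after air. Over all features, 11.1% had such a p after ethanol and 6.41% after air. RpL24-like had 12.04, 11.80, 11.83, 11.77, 11.80, 11.85 and 11.87 from 0 to 210 min in ethanol arrays. The air arrays had 11.86, 11.82, 11.91, 11.76, 11.99, 12.04 and 11.95, against 11.61 and 11.57 in the unexposed arrays. All 14 exposed arrays thus lay above both unexposed arrays, and ethanol and air arrays overlapped. The difference was 0.26 after ethanol (SE 0.083, limma adjusted p = 0.186) and 0.31 after air (SE 0.083, adjusted p = 0.309), and neither passed. The same sign was found under every alternative run, at 0.21 to 0.28 after ethanol and 0.26 to 0.33 after air.

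Complete separation of this kind was not rare on the array. All 7 ethanol arrays lay above both unexposed arrays in 2 of 29 members, RpL24-like and RpS29, a share near the 7.74% of all features. All 7 air arrays lay above both in 2 of 29, RpL24-like and RpL37-1, where 6.79% of all features did. None of the 29 lay wholly below, where 2.19% of all features did after ethanol and 1.91% after air. RpS29 had 14.34 to 14.42 in ethanol arrays against 14.32 and 14.34 in unexposed arrays, and its difference of 0.050 (SE 0.059) did not pass the test. Its second bright probe set (1626693_at) did not separate fully. There 6 of 7 ethanol arrays lay above both unexposed arrays (13.70 and 13.66), and the lowest was 13.64.

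Besides RpL24-like, the smallest p-values after ethanol were those of RpL41 (0.078, SE 0.063) and RpL37-1 (0.076, SE 0.067), with limma adjusted p-values of 0.788 and 0.816. After air they were those of RpL41 (0.085, SE 0.063) and RpL7-like (0.11, SE 0.086), at 0.973 and 0.998. On the negative side stood RpL3 (-0.042), RpL15 (-0.011) and RpS20 (-0.0098) after ethanol and RpL15 (-0.028), RpS20 (-0.013) and RpS30 (-0.0088) after air, none past the test.

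RpL7-like (1637689_at) had 9.91, 9.73, 9.74, 9.74, 9.62, 9.67 and 9.66 from 0 to 210 min in ethanol arrays. The air arrays had 9.76, 9.76, 9.84, 9.74, 9.62, 9.89 and 9.76, and the unexposed arrays 9.77 and 9.55. The unexposed arrays were 0.23 apart, the widest gap between them among the members, and spanned most of the exposed values.

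**Figure D4:**
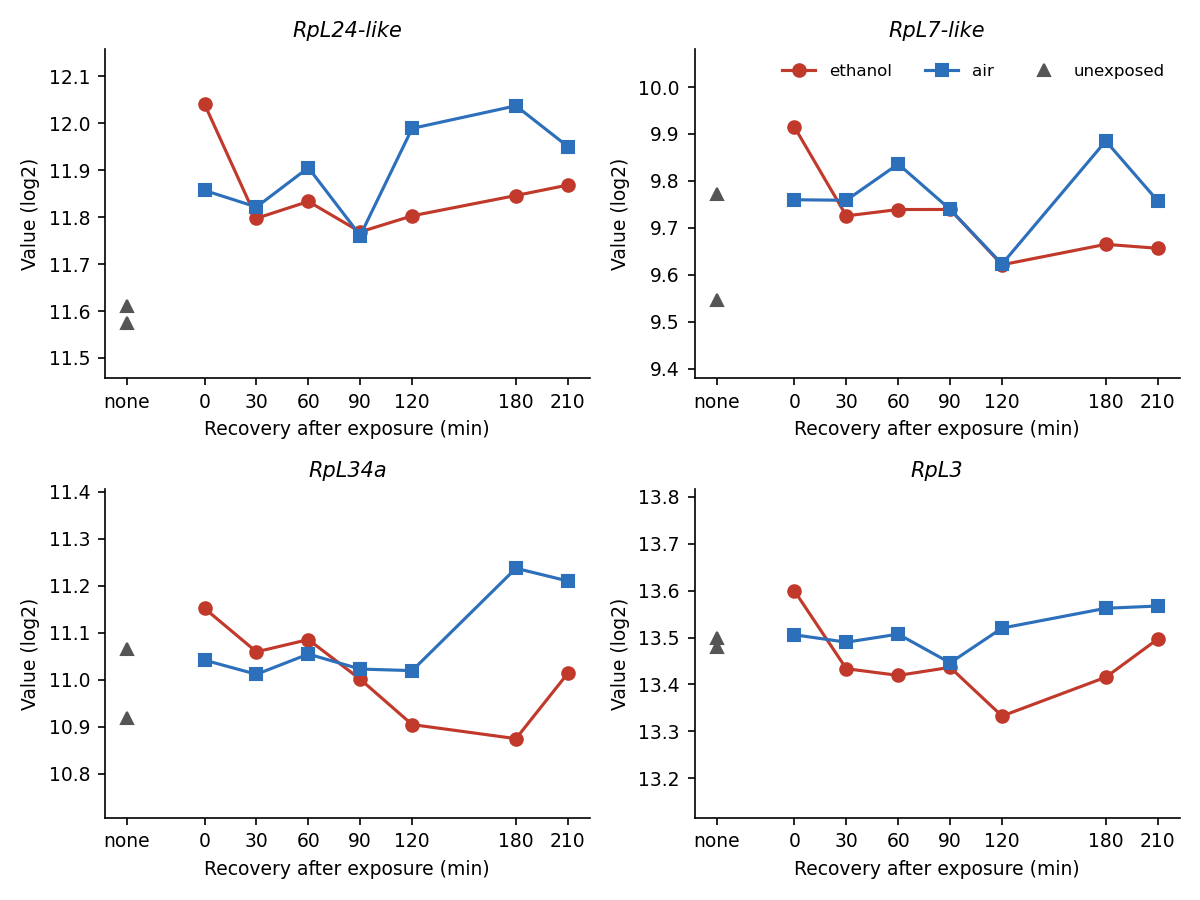
Log2 values of RpL24-like, RpL7-like, RpL34a and RpL3 by recovery time (min, to scale) in ethanol arrays (red circles), air arrays (blue squares) and unexposed arrays (grey triangles at "none"), with 1 array per point and the same height of 0.7 log2 in each panel. RpL24-like is above the unexposed arrays in all 14 exposed arrays, RpL34a is split between ethanol and air at 180 and 210 min, and in RpL3 ethanol is above air at 0 min alone.

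The air arrays with body tissue markers lay among the other air arrays in the members, and the ethanol array with them was the lowest of its group. Against the unexposed mean, the members' median was 0.027, 0.039 and 0.030 in air at 0, 60 and 120 min, within the range of -0.0088 to 0.095 in the other 4 air arrays. In ethanol at 120 min it was -0.061 and the other 6 ethanol arrays ran from -0.0044 to 0.10. Without the 0, 60 and 120 min pairs the median of ethanol minus air was -0.020 beside -0.048 over all features, and 0 members passed. With the mean of the gut and accessory gland markers as a covariate it was -0.036 beside -0.056 over all features, again with 0 past the test. The slope of ethanol minus air had a median of -0.035 per hour without the 0, 60 and 120 min pairs, beside -0.041 with them. Without the 4 arrays, the median was 0.039 after ethanol and 0.035 after air against unexposed flies, beside 0.023 and 0.035 with all arrays. The median slope was -0.016 in ethanol arrays without 120 min, and 0.035 in the 4 air arrays left without 0, 60 and 120 min, beside -0.021 and 0.020 with all 7 of each. None of the 29 passed in any of these fits.

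**Figure D5:**
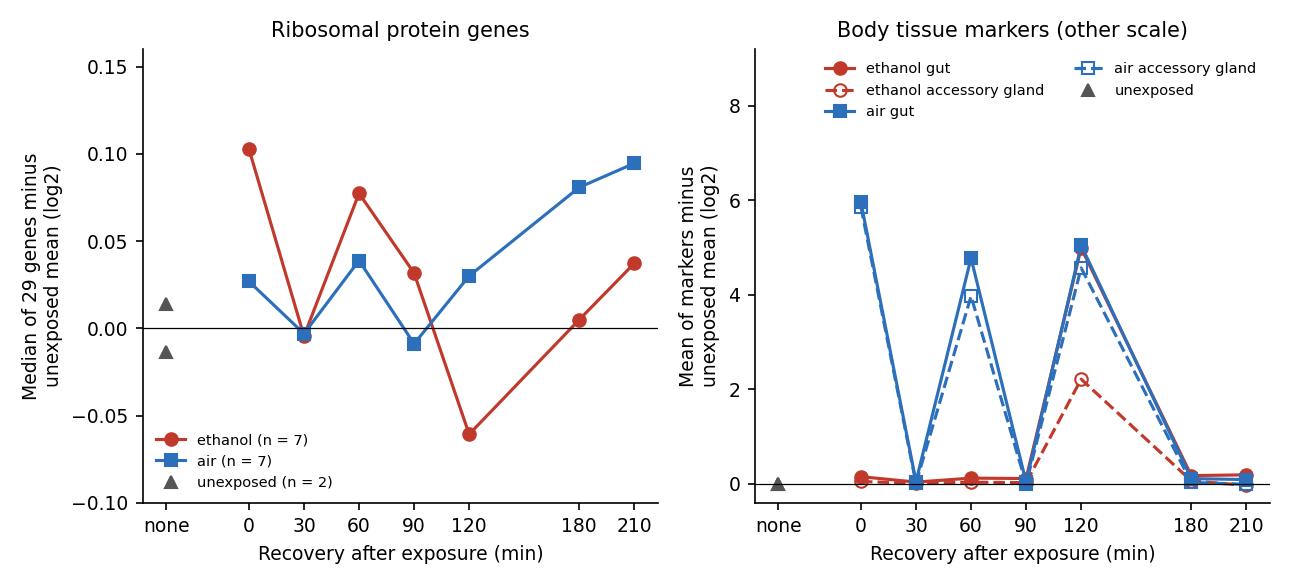
Left, median over the 29 ribosomal protein genes of the difference from the unexposed mean (log2) in each array by recovery time (min, to scale). Right, the mean of the gut (filled) and accessory gland (open) markers on the same basis, on a wider scale: the air arrays at 0, 60 and 120 min and the ethanol array at 120 min lie 2.22 to 5.96 above the unexposed mean, and the members stay between -0.061 and 0.10.

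4 of the 37 genes had more than 1 probe set, and in 2 of them a second set passed the filter. For RpS29 the second set (1626693_at) averaged 13.76 and gave 0.010 for ethanol minus air (SE 0.048), beside 0.0082 for the first. For RpL3 the second set (1625889_at) was far dimmer, at 5.92 to 6.73 with a mean of 6.22. It lay above air in ethanol at 5 of 7 times, with a difference of 0.22 (SE 0.11, limma adjusted p = 0.474), where the bright set was above at 1 of 7. Neither set passed the test, and the opposite signs mean that the direction for RpL3 rests on the choice of probe set.

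Translation genes that the symbol rule leaves out likewise held no call. Over all features, 3.23% passed for the slope in ethanol arrays and 0 to 0.715% in the other comparisons. In short lists, 0 calls is not far from those shares. Of the stalk proteins and sta, 3 of 4 were kept, RpLP0, RpLP1 and RpLP2, and 0 passed in any of the 6 comparisons. Their median of ethanol minus air was -0.0065, and RpLP0, the base of the stalk that recruits elongation factors, had 13.95 to 14.21 in ethanol arrays, 14.02 to 14.19 in air arrays and 13.99 and 14.00 in unexposed arrays. Among elongation and release factors, taken as 1 list, 7 of 10 were kept, including the release factors eRF1 and eRF3, and 0 passed in any comparison. Their median of ethanol minus air was -0.028 with 0 of 7 positive, where 45.1% of all features were. The lowest was eEF1gamma, a subunit of the exchange factor complex of eEF1, at -0.11 (SE 0.057, adjusted p = 0.456).

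Initiation factors, listed with the poly(A)-binding protein pAbp and with 28 of 35 kept, likewise had 0 past the test in all 6 comparisons. Their median of ethanol minus air was -0.049 with 3 of 28 positive, where 45.1% of all features were, from -0.17 (eIF3f1) to 0.076 (eIF2Bepsilon). The cap-binding protein eIF4E1 gave 0.0086 (SE 0.047). The 69 mitochondrial ribosomal protein genes had a median of -0.041 with 14 positive and 0 past the test in all 6 comparisons. Over all features, 3.23% passed for the slope in ethanol arrays and at most 0.715% in the other comparisons.

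Ribosome biogenesis factors (35 of 50 kept) had 0 past the test in all 6 comparisons, where 3.23% of all features passed for the slope in ethanol arrays. Their slopes in ethanol arrays had a median of 0.085 log2 per hour with 28 of 35 positive. The median was -0.021 in the ribosomal protein genes and -0.010 over all features, of which 44.4% were positive. Fib, the methyltransferase fibrillarin of the nucleolus, had 0.35 per hour in ethanol arrays (SE 0.11, limma adjusted p = 0.142). Nop60B, the pseudouridine synthase of the nucleolus, had 0.40 (SE 0.16, adjusted p = 0.228), with a lowest ethanol value of 4.13, near the filter. The smallest adjusted p was that of mbm (0.26 per hour, SE 0.062, limma adjusted p = 0.0703). The lowest slope was that of Polr1F, at -0.12 (SE 0.075). None of these passed.

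Of the Myc and TOR pathway, 15 of 24 genes were kept, and 1 passed in 1 of the 6 comparisons, the slope in ethanol arrays, where 3.23% of all features passed, so a single call among 15 genes is not far from the share over the array. S6k, the kinase downstream of TOR that phosphorylates the small subunit protein RpS6, fell over recovery in ethanol arrays by 0.35 log2 per hour (SE 0.068, limma adjusted p = 0.0447). It had 9.83, 9.35, 9.06, 9.46, 8.91, 8.39 and 8.61 from 0 to 210 min in ethanol arrays, 8.95, 8.95, 8.87, 8.94, 8.52, 9.24 and 9.27 in air arrays, and 9.16 and 9.22 in unexposed arrays. S6k was thus above air in ethanol up to 120 min and below it at 180 and 210 min. The difference of the slopes, -0.44 per hour (SE 0.090), had an adjusted p of 0.0844 and did not pass. The call in ethanol arrays was kept in 7 of 14 alternatives and missed in the other 7, with an adjusted p of up to 0.159. InR, the insulin receptor, averaged 7.53 ± 0.39 in ethanol arrays, 7.28 ± 0.19 in air arrays (SD, n = 7 each) and 8.10 ± 0.16 in unexposed arrays (SD, n = 2), and no difference passed.

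Other genes shared the members' time profile. Over the 7 ethanol minus air differences, the genes whose profile correlated best with the members' median among 7075 named genes were cathD (r = 0.979), Tmem63 (0.978), Tom20 (0.972), Ulp1 (0.972) and CG11007 (0.967). With 7 points and shifts of whole arrays common to all genes, 70 of the 7075 reached r = 0.90 or more, and the ranking is a description.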

How the data were processed

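The deposited values are log2 expression per probe set of Affymetrix Drosophila arrays, which the authors computed with GCRMA. That tool, with no version, is the one that the submitters' processing notes list. GCRMA corrects background from probe sequence and quantile normalizes the arrays. 183 control probe sets were left out of the table and 18769 used. Of these 13647 had 1 symbol, 402 several and 4720 none. Symbols came from the array annotation, updated through Entrez IDs to the RefSeq gene table. With the brightest probe set per gene, 8110 of 17104 features reached log2 4 in at least 3 of 16 arrays.

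Each of 6 comparisons was fitted over all kept features with limma 3.58.1 in R 4.3.3 (lmFit and eBayes), with Benjamini-Hochberg adjustment and a threshold of 0.05. Ethanol against air had recovery time as a factor, which matches each ethanol array to the air array of its time. Slopes were per hour. Exposed against unexposed came from 1 fit of 3 groups over all 16 arrays, whose spread includes change over time. The fits were tested on simulated data. The members, gene lists, rule for named genes and alternatives were chosen with earlier results of these data known. Named were gene copies, the 5 highest and lowest members, those nearest the filter, RpL3, and the 3 smallest p-values each way where none passed. S6k and the other pathway genes come from lists written from general knowledge, and those given with values were picked after they were seen. Alternatives changed the filter, the probe sets, the scaling, the variance model, the threshold, the time term and the arrays. The number of arrays limits the precision.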

Additional observations from a re-analysis of the deposited data

Results flagged for a closer look

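Among the 58 combinations of a member with the ethanol or the air arrays, 4 had 1 array far from the other 6, with a gap to its neighbour, as a share of the group's range, above Dixon's critical value. Chance alone marks about 1 in 20. In ethanol arrays both were at 0 min: RpL24-like at 12.04, with the next array at 11.87, and RpL7-like at 9.91, with the next at 9.74. The ethanol array at 0 min also read 0.16 log2 above the unexposed mean in the median of all kept features. In air arrays RpL17, a large subunit protein, was highest at 210 min with 13.05, the next at 12.98, and RpL27 was lowest at 90 min with 12.66, the next at 12.72. None of the 4 genes passed the test in any of the 6 comparisons.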

How the results depend on the processing

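In all 96 alternative fits 0 members passed, while the number of features passing overall ran from 0 to 111 for ethanol against air, 0 to 151 for its slope, 0 to 142 and 0 to 10 for ethanol and air against unexposed, 13 to 638 for the slope in ethanol arrays and 0 to 1 for that in air arrays. Median scaling, which centres each array on its kept features, turned the sign of the members' median in every comparison but the slope in ethanol arrays. The medians became 0.0014 for ethanol minus air and 0.016 for its slope. They became -0.024 for ethanol minus unexposed, -0.021 for air minus unexposed and -0.021 for the slope in air arrays. Quantile scaling gave -0.0092 and -0.0022 for the slope of ethanol minus air and the slope in air arrays. Leaving out 1 array at a time gave -0.035 to -0.00037 for the slope in ethanol arrays, nearest 0 without the 0 min array, and 0.015 to 0.030 for the slope in air arrays, highest without the 0 min array. Leaving out 1 time at a time moved the median of ethanol minus air between -0.021 and 0.0094, above 0 without 120, 180 or 210 min, so its sign is not settled. Without the air arrays at 0, 60 and 120 min, a fit chosen after seeing the data, the median slope in air arrays was 0.035. Without unexposed array B the median of ethanol minus unexposed was -0.0061. The cause was not tested. The lowest-mean probe set in place of the highest concerned 2 genes. Ethanol against air is already a paired fit, by recovery time, and leaving the time term out also gave 0 members past the test. With 7 pools an arm and 2 unexposed, small shifts of single genes lie within the intervals given.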

Other observations

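The 29 members lie on 5 chromosome arms as the RefSeq table gives them, 7 on 2L, 6 on 2R, 4 on 3L, 9 on 3R and 3 on X. No arm was set against another.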
